A study of Mus musculus with 36 samples.

Results

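The miR-708 arms are the mature miRNAs mmu-miR-708-5p and mmu-miR-708-3p, written here without the species prefix, which are cut from the 5′ and the 3′ side of 1 hairpin, and they are 2 of the 1963 miRNAs listed in the count tables. They were taken by name. The names had been chosen by measured values, namely lower levels of both arms in A537T-TRAMP than in WT-TRAMP prostates at 30 weeks and a difference between these groups that lay further below 0 than at 10 weeks, so that contrast and that change with age are described here without a test. For the same reason no p-value is given for the arms in any contrast that uses WT-TRAMP or A537T-TRAMP libraries, which leaves KO-TRAMP against KO, the lines without TRAMP, and their ages as the tested contrasts. Small RNA was sequenced from the ventral and lateral prostate lobes of male mice, with 3 libraries in each of 12 groups. The groups combined 3 Elac2 genotypes (ELAC2+/+, called WT; ELAC2-/-, called KO; ELAC2A537T, called A537T), the absence or presence of 1 copy of the TRAMP transgene, and an age of 10 or 30 weeks. All mice were given as strain C56NL/6N. ELAC2 is the endonuclease that trims the 3′ ends of tRNA precursors. The KO deletes exon 8 only where the Pb promoter drives Cre, which in prostate is the epithelium, whereas A537T is a homozygous substitution in every cell of the body, and TRAMP expresses the SV40 T antigens from the probasin promoter, which again acts in the epithelium.

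A miRNA hairpin yields a duplex, and the arm that is loaded into an Argonaute protein pairs with target mRNAs mainly through its seed, the bases 2 to 8. miR-708-5p is usually the more abundant arm. The hairpin lies within Tenm4, a gene for a teneurin transmembrane protein, and transcription of Tenm4 with its miRNA has been linked to CHOP, a transcription factor of the endoplasmic reticulum (ER) stress response. miR-708-5p has been studied as a suppressor of prostate and other tumours.

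In GRCm38 the gene Mir708 spans chr7:96249424-96249532 on the plus strand. It lies in the first intron of all 7 Tenm4 transcripts that span it (Tenm4 spans chr7:96171246-96911093, plus strand), and 0 Tenm4 exons overlap it. Tenm4 mRNA was not analysed here. The mature sequences are shown with those of miR-28a, because miR-28a-5p was the only other entry with the seed of miR-708-5p among 1679 mature mouse miRNAs of RefSeq (GRCm38.p6); miR-28c was not among those searched. Capitals mark the seed.
miR-708-5p: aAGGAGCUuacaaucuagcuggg
miR-28a-5p: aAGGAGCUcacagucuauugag
miR-708-3p: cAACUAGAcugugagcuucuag
miR-28a-3p: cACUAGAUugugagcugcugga
The 5p arms of miR-708 and miR-28a were identical at 16 of 22 aligned bases. The 3p arms were identical at 17 of 21 bases once shifted by 1 base, so their seeds differ, and the seed of miR-708-3p was shared with no other entry. miR-708-5p lies at chr7:96249450-96249472 and miR-708-3p at chr7:96249496-96249517, while miR-28a-5p and miR-28a-3p lie on chr16 at 24827868 to 24827889 and 24827908 to 24827929 (all plus strand).

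Levels are in CPM, that is reads scaled to the total of miRNA reads of the library. The 36 libraries held 4544257 to 21870210 miRNA reads, except library 35 (A537T, 10 weeks) with 655455. Library 35 counted only 46 reads of the 5p arm and 21 of the 3p arm. Over all libraries, the 5p arm had 46 to 1406 reads (median 439.5) and the 3p arm 21 to 737 (median 237.5), so counting error was not negligible for either arm, above all in the TRAMP libraries of 10 weeks, where the 3p arm had 35 to 170 reads. By mean level, miR-708-5p (37.5 CPM) ranked 206 and miR-708-3p (18.1 CPM) ranked 255 among the 1574 miRNAs with any read. Libraries are numbered as in the tables, whose column names carry no group, so a library that 2 mutant tables shared was read as a WT control. Library 16 (KO-TRAMP, 30 weeks) stood apart from the other two of its group. In it, markers of stroma and smooth muscle (miR-143, miR-145a, miR-199a and miR-214) made up 5.73% of reads against 24.2% and 33.8%, and neural and neuroendocrine markers 0.563% against 1.51% and 1.89%, while leukocyte markers were the highest of the series at 0.170%. Skeletal muscle miRNAs took 9.74% to 30.7% of reads in WT and 3.72% to 13.7% in A537T at 10 weeks, and at most 0.937% in any group of 30 weeks. In KO at 10 weeks they took 0.736% to 6.51%, the most in library 32. In KO-TRAMP of that age they took 0.238% to 3.10%, the most in library 9, and in the other TRAMP groups at most 0.904%. The 2 endothelial markers gave 0.493% to 1.86% of reads and the 6 epithelial markers 3.81% to 10.0%, while the liver marker miR-122 did not exceed 0.00452%.

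**Figure D1:**
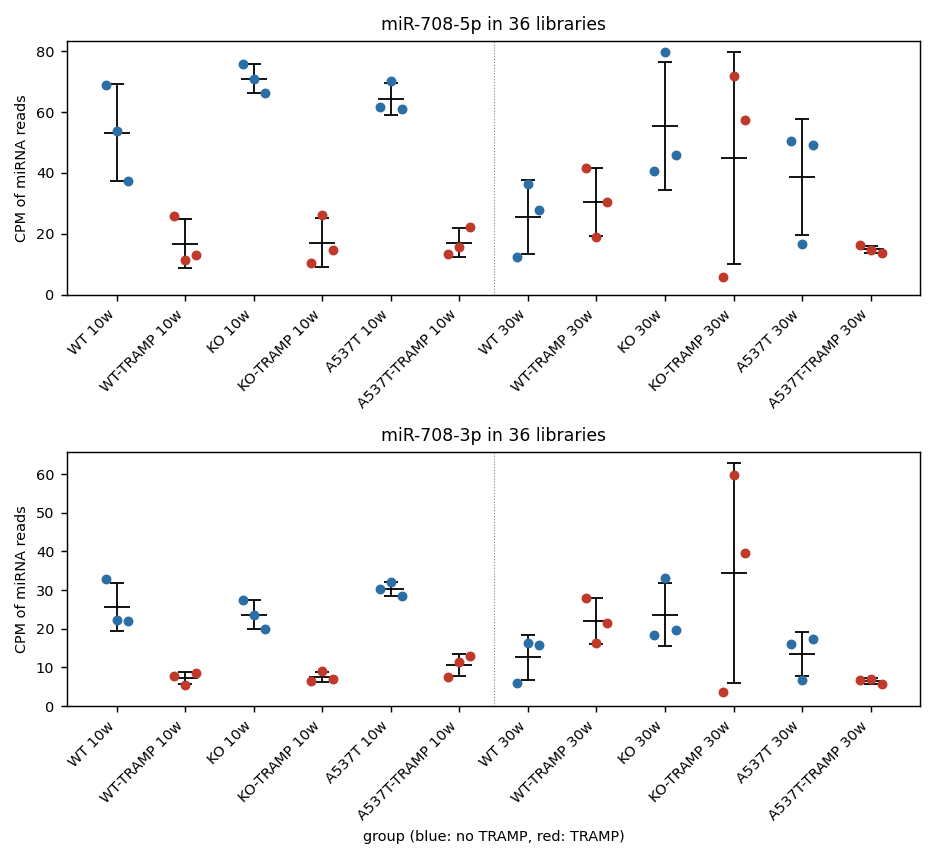
CPM of miR-708-5p (top) and miR-708-3p (bottom) in each of 36 libraries by group, blue without and red with TRAMP, with the mean and SD of 3 libraries in black. At 10 weeks the 9 TRAMP libraries lie at 10.5 to 26.1 CPM for 5p and below all 9 libraries without TRAMP (37.2 to 75.7 CPM). At 30 weeks the libraries with and without TRAMP overlap, though not for 5p within A537T.

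To see how miR-708 differed with the TRAMP transgene at 10 weeks, TRAMP mice of that age were compared with mice of the same line without it. Both arms were lower with TRAMP in each of the 3 lines. In WT the 5p arm had 68.9, 53.7 and 37.2 CPM without TRAMP and 25.97, 11.3 and 13.2 CPM with it. In KO it had 75.7, 70.9 and 66.3 CPM without TRAMP and 10.5, 26.1 and 14.7 CPM with it. In A537T it had 61.7, 70.2 and 60.9 CPM without TRAMP and 13.3, 15.8 and 22.4 CPM with it. No TRAMP library reached the lowest library without TRAMP, in any line. How many of all miRNAs separated in this way was not counted, here or for the separations given below. The 3p arm followed, with 32.9, 22.2 and 22.0 CPM in WT and 7.70, 5.47 and 8.48 CPM in WT-TRAMP. It had 27.4, 23.5 and 19.9 CPM in KO and 6.38, 9.04 and 7.03 CPM in KO-TRAMP. In A537T it had 30.3, 32.04 and 28.5 CPM and in A537T-TRAMP 7.55, 11.3 and 13.1 CPM. Over the 3 lines, the TRAMP libraries thus lay at 5.47 to 13.1 CPM and those without TRAMP at 19.9 to 32.9 CPM.

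On the log2(CPM + 1) scale, miR-708-5p differed between TRAMP and no TRAMP at 10 weeks by -1.65 ± 0.57 (SE) in WT, -2.08 ± 0.57 in KO and -1.87 ± 0.57 in A537T, which are 3.14-fold, 4.24-fold and 3.67-fold lower levels. miR-708-3p differed by -1.69 ± 0.54, -1.54 ± 0.54 and -1.46 ± 0.54. The differences in WT and A537T are descriptions, since their TRAMP libraries entered the change with age that chose the arms. In KO, both arms passed the limma test over 514 miRNAs (adjusted p = 0.00616 for 5p and 0.0250 for 3p). The KO and KO-TRAMP libraries did not enter the contrasts that chose the arms. However, earlier results of these data were known and the spread came from all 36 libraries. The test was thus not fully independent of the choice. Lower levels with TRAMP were common among miRNAs at this age. The same test called 14.2% of the 514 miRNAs lower in WT, 28.4% in KO and 22.4% in A537T (19.8%, 14.4% and 12.6% higher), and the median of all miRNAs moved by -0.05, -0.40 and -0.22. The differences of both arms were larger than these medians in all 3 lines. TMM scaling moved the median by -0.11 in WT, 0.16 in KO and 0.12 in A537T, and both arms stayed lower under every alternative that was run. With 1 library left out at a time, the KO call was kept for 5p in all 6 fits, whereas for 3p it was lost without library 7, 9, 31 or 32 (differences -1.53 to -1.43, adjusted p 0.0567 to 0.0888).

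Other tissue markers moved in the same comparisons. Their counts stand beside 14.2%, 28.4% and 22.4% of all miRNAs called lower in WT, KO and A537T, and 19.8%, 14.4% and 12.6% called higher. Both endothelial markers were called lower with TRAMP in WT and in KO, and 1 of them in A537T. Of the 4 stroma and smooth muscle markers measured, 0 were called in WT, 4 were lower in KO and 2 were lower in A537T. Of 6 epithelial markers, 4, 3 and 3 were called higher in WT, KO and A537T, and 1 was lower in KO. Of 7 skeletal muscle miRNAs tested, 7, 2 and 6 were lower, and with their reads taken out of the totals the differences of both arms kept their direction in all lines and their calls in KO. Of 3 red cell markers, 2 were called lower in each of the 3 lines, and their summed share did not overlap between the groups, with 0.0118% to 0.0293% of reads in WT, 0.0233% to 0.0370% in KO and 0.0307% to 0.0357% in A537T without TRAMP, against 0.00704% to 0.00977%, 0.00592% to 0.0185% and 0.00458% to 0.0210% with TRAMP. Of 5 leukocyte markers, 2, 1 and 0 were higher and 1, 2 and 2 lower in WT, KO and A537T, and of 6 neural and neuroendocrine markers, 1 was higher in WT and 1 lower in KO. The liver marker was higher in A537T. Endothelial markers gave 1.24% to 1.86% of reads in the 9 libraries without TRAMP and 0.493% to 1.11% in the 9 with it. The part of these tissues in the miR-708 difference was not tested, and in such bulk tissue fewer cells of a type and less of the miRNA per cell cannot be told apart.

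**Figure D2:**
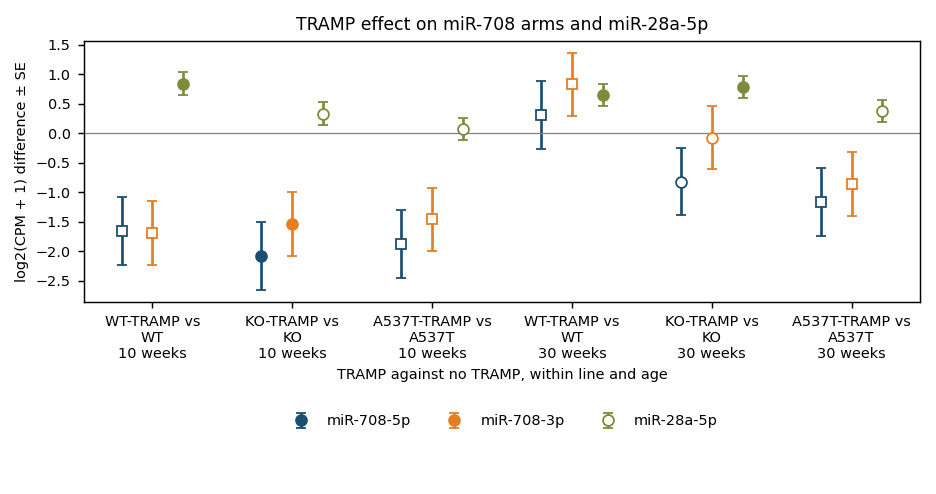
Difference between TRAMP and no TRAMP in log2(CPM + 1) for miR-708-5p, miR-708-3p and miR-28a-5p in each line and age (points, with SE as bars); filled circles have a limma adjusted p under 0.05, open circles do not, and squares were not tested. Both miR-708 arms lie between -2.08 and -1.46 at 10 weeks in all 3 lines, while miR-28a-5p is above 0 in all 6 comparisons.

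At 30 weeks the same comparison gave no call on either arm in KO, the tested line, where 35.8% of all miRNAs were called in either direction. In WT the 5p arm had 12.3, 36.2 and 27.8 CPM without TRAMP and 41.7, 19.1 and 30.6 CPM with it, so the groups overlapped. The 3p arm had 5.92, 16.4 and 15.7 CPM in WT and 28.04, 16.2 and 21.5 CPM in WT-TRAMP. Library 19 was the low WT library for both arms. The difference in WT was 0.31 ± 0.57 for 5p and 0.83 ± 0.54 for 3p. In KO the 5p arm had 40.7, 79.6 and 45.9 CPM, and in KO-TRAMP 5.77, 71.8 and 57.4 CPM. The 3p arm had 18.3, 33.1 and 19.6 CPM in KO and 3.73, 59.8 and 39.7 CPM in KO-TRAMP. In KO-TRAMP, library 16 held the lowest level of the whole series for both arms, and library 17 the highest level of the series for 3p.

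The KO contrast at 30 weeks was -0.82 ± 0.57 for 5p (adjusted p = 0.282) and -0.07 ± 0.54 for 3p (adjusted p = 0.930), and it turned on library 16. Without library 16 the 3p arm was higher in KO-TRAMP by 1.06 (adjusted p = 0.0218) and the 5p arm differed by 0.27. Without library 17 they were -0.78 and -1.44. With array weights and all libraries, the 3p arm was higher in KO-TRAMP by 1.14 (adjusted p = 0.000578), where 332 of 514 miRNAs were called. In A537T the 5p arm had 50.5, 16.7 and 49.0 CPM and in A537T-TRAMP 16.3, 14.7 and 13.9 CPM. The 3p arm had 16.1, 6.85 and 17.5 CPM in A537T and 6.83, 7.04 and 5.66 CPM in A537T-TRAMP. Library 26 was the low A537T library for both arms and lay within or next to the range of the A537T-TRAMP libraries. The differences were -1.17 ± 0.57 for 5p and -0.86 ± 0.54 for 3p.

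The A537T-TRAMP group of 30 weeks was the lowest of the 12 groups for both arms, at 14.96 ± 1.23 CPM for 5p and 6.51 ± 0.747 CPM for 3p (SD, n = 3), and had the smallest SD. WT-TRAMP of that age had 30.5 ± 11.3 and 21.9 ± 5.93 CPM. The difference between these groups, which chose the arms, was -0.92 ± 0.57 for 5p and -1.58 ± 0.54 for 3p, that is 1.89-fold and 2.99-fold lower levels, and its 30-week minus 10-week change was -0.999 ± 0.81 and -2.07 ± 0.76. All 3 A537T-TRAMP libraries lay below all 3 WT-TRAMP libraries for each arm, which restates the choice of the arms. The share of all miRNAs with such a separation was not counted. By limma, 0% of all miRNAs were called in this contrast. The A537T-TRAMP libraries of 10 weeks had 13.3 to 22.4 CPM of 5p, a range that held all 3 libraries of 30 weeks, and 7.55 to 13.1 CPM of 3p, just above all 3. In the order of the 12 group means, every group overlapped the next higher one for both arms. The highest 5p mean was that of KO at 10 weeks (71.0 ± 4.72 CPM) and the highest 3p mean that of KO-TRAMP at 30 weeks (34.4 ± 28.4 CPM), with the widest spread of all.

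Without TRAMP, KO or A537T was set against WT of the same age in 4 contrasts, and by limma neither arm was called in any of them (adjusted p 0.291 to 0.938). Few miRNAs of any kind were called there. The KO contrasts called 3.89% of all miRNAs at the younger age and 0.584% at the older, and the A537T contrasts 0.195% and 0%. The furthest from 0 was miR-708-5p in KO against WT at 30 weeks, at 1.16 ± 0.57 with a 95% interval from -0.02 to 2.33 (adjusted p = 0.291). That difference passed by DESeq2's Wald test (1.50, adjusted p = 0.0239) and with array weights (0.67, adjusted p = 0.00212), as did 5p in A537T against WT at 30 weeks with array weights (0.76, adjusted p = 0.000976). Array weights called 305 of the 514 miRNAs in that KO contrast and 298 in the A537T contrast, and DESeq2 called 65 in the KO contrast. For KO-TRAMP against WT-TRAMP at 30 weeks, which shares its WT-TRAMP libraries with the contrast that chose the arms, the differences were 0.03 ± 0.57 for 5p and 0.02 ± 0.54 for 3p, and the 95% intervals reached from -1.15 to 1.20 and from -1.08 to 1.12. Without library 16 they were 1.12 and 1.15, and without library 17 they were -0.60 and -0.69.

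With age, the differences between 30 and 10 weeks without TRAMP were -1.12 ± 0.57 (5p) and -1.06 ± 0.54 (3p) in WT, -0.41 and -0.03 in KO, and -0.87 and -1.21 in A537T, and 0 of the 6 passed the test (adjusted p 0.132 to 0.975), beside 9.53%, 14.8% and 15.2% of all miRNAs. With TRAMP, the differences were 0.84 ± 0.57 and 1.47 ± 0.54 in WT-TRAMP, 0.85 ± 0.57 and 1.43 ± 0.54 in KO-TRAMP, and -0.16 and -0.61 in A537T-TRAMP, of which only KO-TRAMP was tested. There neither arm passed (adjusted p = 0.323 for 5p and 0.0561 for 3p), beside 22.2% of all miRNAs. The 3p arm without library 16 rose by 2.56 (adjusted p = 3.68e-06), and 5p then rose by 1.94 (adjusted p = 0.00142). Library 16 was the lowest of the series for both arms, and for each arm this was the only 1 of 6 fits with a library left out that passed. Leaving out library 17 instead gave 0.72 for 3p (adjusted p = 0.457) and 0.23 for 5p (adjusted p = 0.874). By edgeR's quasi-likelihood test the 3p arm passed in KO-TRAMP with all libraries (1.87, adjusted p = 0.00945). The change with age was then compared between mice with and without TRAMP. The KO and KO-TRAMP libraries did not enter the contrasts that chose the arms. In KO the interaction of age and TRAMP was 1.27 ± 0.81 for 5p and 1.47 ± 0.76 for 3p (adjusted p = 0.229 and 0.135), where 31.9% of all miRNAs were called. Without library 16 it was 2.36 and 2.60 (adjusted p = 0.00343 and 0.000211), the only 1 of 12 such fits that passed for each arm. Leaving out library 17 instead gave 0.64 and 0.76 (adjusted p = 0.589 and 0.456). The values in WT, 1.96 ± 0.81 for 5p and 2.52 ± 0.76 for 3p, contain both WT-TRAMP groups that chose the arms and are given as a description, as are those in A537T, 0.71 and 0.60.

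The ratio of the arms within a library does not depend on how libraries are scaled. The 5p arm was the more abundant in all 36 libraries, by 1.18 to 3.37 reads for each 3p read (median 2.10). The groups with the lowest mean ratios were WT-TRAMP at 30 weeks (1.49, 1.18 and 1.42) and KO-TRAMP at 30 weeks (1.55, 1.20 and 1.45), but A537T-TRAMP libraries of 10 weeks overlapped them (1.76, 1.40 and 1.72). In these 6 libraries the 3p arm made up 39.3% to 45.8% of miR-708 reads, in the 18 libraries without TRAMP 23.1% to 37.1%, and in the 9 TRAMP libraries of 10 weeks 22.9% to 41.7%. For library 17, where the counts were large, the share was 45.4% (95% Wilson interval for counting error only, 43.0% to 47.9%). A537T-TRAMP of the same age had ratios of 2.38, 2.09 and 2.45.

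The log2 ratio of 5p to 3p was lower in KO-TRAMP than in KO at 30 weeks, where KO had ratios of 2.22, 2.41 and 2.34. The difference was -0.74 ± 0.21 (adjusted p = 0.0250 over 140 miRNAs with both arms measured), a 1.67-fold lower ratio. Neither group entered the contrasts that chose the arms, though earlier results of these data were known. Library 16, low in level, had a ratio of 1.55, like the other two. The same test called 7.86% of the 140 pairs lower in this comparison. The call was lost without library 17 (-0.64, adjusted p = 0.105), 18 (-0.77, adjusted p = 0.0516) or 24 (-0.74, adjusted p = 0.0531), and when only the groups compared were fitted (adjusted p = 0.0937). In WT-TRAMP against WT at 30 weeks the ratio differed by -0.57 ± 0.21, and in A537T-TRAMP against A537T by -0.27 ± 0.21, neither of them tested.

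KO-TRAMP and A537T-TRAMP were set side by side at 30 weeks, as a description because the A537T-TRAMP libraries chose the arms. The log2 ratio differed by -0.73 ± 0.21 between KO-TRAMP and A537T-TRAMP. In level the difference was 1.60 ± 0.54 for 3p and 0.94 ± 0.57 for 5p. It was 2.73 and 2.03 without library 16, and 0.89 and 0.32 without library 17.

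**Figure D3:**
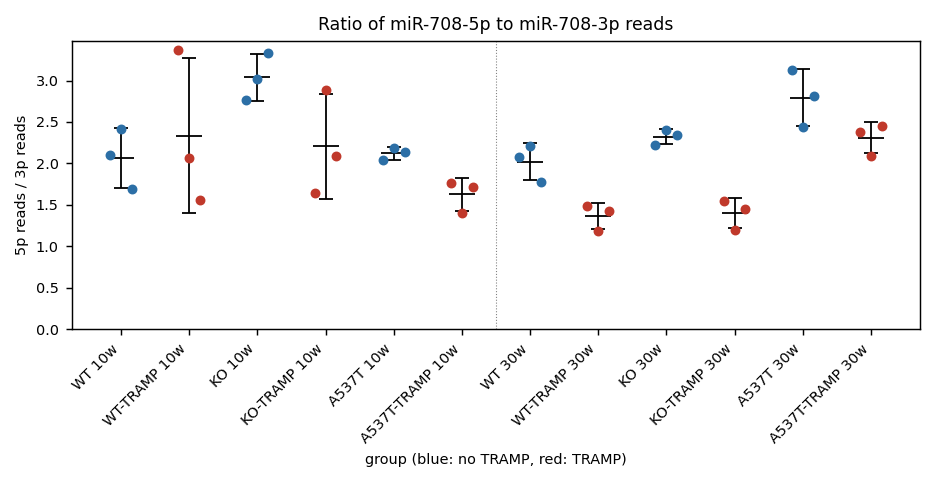
Reads of miR-708-5p per read of miR-708-3p in each of 36 libraries by group, blue without and red with TRAMP, with the mean and SD of 3 libraries in black. All ratios exceed 1, and the WT-TRAMP and KO-TRAMP libraries of 30 weeks lie at 1.18 to 1.55.

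The contrast that chose the arms had a log2 ratio 0.76 ± 0.21 higher in A537T-TRAMP than in WT-TRAMP at 30 weeks, which is described only. At 10 weeks the ratio differed with TRAMP by 0.11 in WT, -0.50 in KO and -0.39 in A537T. In KO, where both arms were called lower, the ratio did not pass the test (adjusted p = 0.0844), beside 25.7% of all pairs. With array weights it did (-0.56), where 62 of 140 pairs were called. KO at 10 weeks had the highest mean ratio of the groups (2.76, 3.02 and 3.33). Libraries of other groups overlapped it, though not those of WT at that age (1.69 to 2.42). The highest single ratio was 3.37 in WT-TRAMP at 10 weeks. In KO against WT the log2 ratio differed by 0.56 ± 0.21 at 10 weeks and 0.21 ± 0.21 at 30 weeks (limma adjusted p = 0.183 and 0.964). In A537T against WT it differed by 0.05 ± 0.21 and 0.47 ± 0.21 (adjusted p = 0.955 and 0.386). In each of these contrasts 0% of all pairs were called. Between groups, the SD of the 12 mean log2 ratios of miR-708 was 0.353, against a median of 0.354 over the 140 pairs, which placed miR-708 at rank 72 from the most variable.

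miR-28a-5p shares the seed of miR-708-5p and was the more abundant of the pair in every library, at 104 to 252 CPM. In WT it rose with TRAMP at 10 weeks, from 109, 117 and 111 CPM to 239, 209 and 164 CPM, a difference of 0.84 ± 0.19 (adjusted p = 0.000773). It was also higher with TRAMP at 30 weeks in WT (0.66 ± 0.19, adjusted p = 0.0105) and in KO (0.78 ± 0.19, adjusted p = 0.00205), where 15.4% and 27.2% of all miRNAs were called higher. In KO and A537T at 10 weeks it differed by 0.34 and 0.07, and in A537T at 30 weeks by 0.38 (adjusted p 0.140 to 0.807). miR-708-5p made up 22.7% to 38.8% of the reads of the shared seed in the 9 libraries of 10 weeks without TRAMP, and 5.13% to 12.9% in the 9 with TRAMP. Over the 3 lines, the sum of both miRNAs was 148 to 269 CPM without and 165 to 265 CPM with TRAMP at that age. These pooled ranges overlapped, while those of the share did not. Within WT, every TRAMP library had the higher sum (148.07 to 177.47 CPM without TRAMP, 177.48 to 264.95 CPM with it). The sum without and with TRAMP was 199.6 to 208.2 and 171.3 to 202.3 CPM in KO. In A537T it was 167.4 to 268.7 and 165.1 to 181.5 CPM. At 30 weeks the share was 6.16% to 8.37% in A537T-TRAMP, 7.05% to 19.1% in WT-TRAMP, and 2.77%, 25.2% and 21.9% in KO-TRAMP, where the lowest was again library 16.

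**Figure D4:**
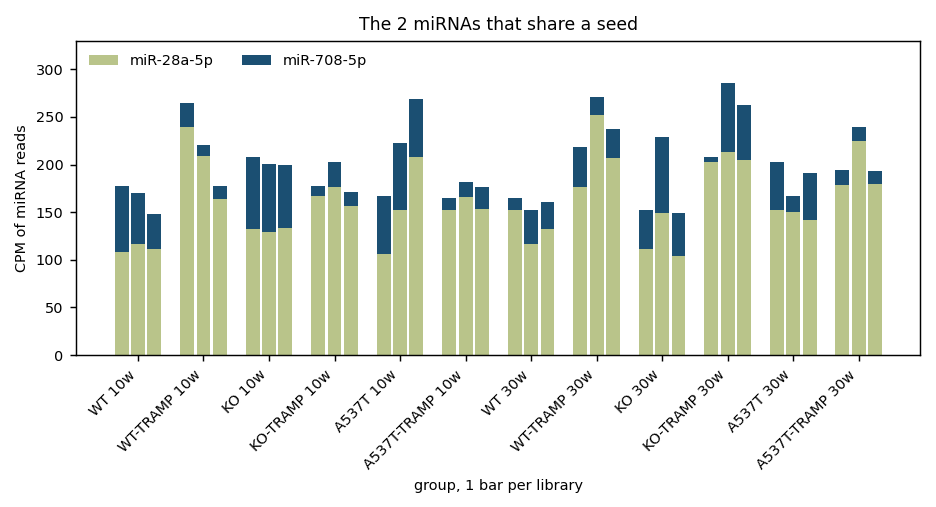
CPM of miR-28a-5p (light) and miR-708-5p (dark) stacked in each of 36 libraries, 3 bars per group. At 10 weeks the dark part is 22.7% to 38.8% of a bar without TRAMP and 5.13% to 12.9% with TRAMP, while the height of the bars ranges from 148 to 269 CPM over both.

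Of 6 relatives of miR-708 in sequence or seed, 5 were abundant enough to test, the exception being miR-28b. miR-28c was higher with TRAMP in WT at 10 weeks (0.73 ± 0.21, adjusted p = 0.00595) and in KO at 30 weeks (0.70 ± 0.21, adjusted p = 0.00875). Whether the counting split reads between miR-28c and miR-28a-5p was not tested. miR-151-5p was lower in KO-TRAMP than in KO at 10 weeks (-0.96 ± 0.28, adjusted p = 0.00894), and miR-151-3p was higher in A537T-TRAMP than in A537T at that age (0.57 ± 0.20, adjusted p = 0.0275). miR-28a-3p was not called in any TRAMP comparison, with differences from -0.40 to 0.31. Counted over the 5, 2 were higher and 0 lower in WT at 10 weeks, 0 and 1 in KO, and 1 and 0 in A537T, beside the shares of all miRNAs called higher and lower (19.8% and 14.2% in WT, 14.4% and 28.4% in KO, 12.6% and 22.4% in A537T). The median difference of the 5 was 0.31, 0.33 and 0.07, beside -0.05, -0.40 and -0.22 for all miRNAs.

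Other miRNAs linked to the ER stress response moved in both directions with TRAMP. Of 17 such miRNAs, 6 were higher and 2 lower with TRAMP in WT at 10 weeks, 4 and 6 in KO, and 3 and 3 in A537T. These stand beside the shares of all miRNAs just given. The list's median differences were 0.02, -0.07 and -0.07, beside -0.05, -0.40 and -0.22 for all miRNAs. miR-25-3p, miR-93-5p and miR-106b-5p, which come from 1 cluster and restrain the pro-apoptotic BIM, were higher by 2.44, 2.09 and 1.83 in WT (adjusted p = 1.66e-10, 4.22e-09 and 0.000427). miR-34a-5p, a target of p53, was lower with TRAMP at 10 weeks by differences of -2.24 in WT, -3.94 in KO and -2.01 in A537T (adjusted p = 0.000156, 1.11e-07 and 0.000917). miR-503-5p was lower as well, by -1.28, -0.81 and -1.01 (adjusted p = 0.00332, 0.0477 and 0.0201). At 30 weeks 4 were higher and 3 lower in WT, 6 and 4 in KO, and 4 and 1 in A537T, beside 15.4% and 14.8% of all miRNAs in WT, 27.2% and 8.56% in KO, and 8.56% and 2.33% in A537T. There miR-34a-5p differed by -1.94 in WT (adjusted p = 0.00113) and by -1.54 in KO (adjusted p = 0.00593).

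The miRNAs with the pattern most like that of the arms over the 12 group means of log2(CPM + 1) were sought among 298 miRNAs of at least 10 CPM. The arms themselves had r = 0.904 with each other over the 12 means, and r = 0.921 over the 36 libraries, whose totals they share. For miR-708-5p the nearest others were miR-125b-1-3p (r = 0.910), the endothelial miR-126a-3p (r = 0.885) and miR-24-2-5p (r = 0.874). For miR-708-3p they were miR-351-5p (r = 0.886), miR-24-2-5p (r = 0.877) and miR-139-5p (r = 0.804). Taken within groups, over the deviations of libraries from their group means, the arms kept r = 0.946, miR-139-5p had r = 0.697 with 3p, and miR-125b-1-3p had only r = 0.118 with 5p. miR-351-5p had 10.5 to 12.1 CPM in WT-TRAMP against 24.9 to 40.6 CPM in WT at 10 weeks.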

How the data were processed

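Small RNA libraries (TruSeq, NovaSeq) were made from total RNA of ventral and lateral prostate lobes. Per the methods, the authors merged the read pairs with BBMerge, quantified miRNAs with miRDeep2 against GRCm38 and miRBase, and summed miRNAs of identical sequence. The deposited values are DESeq2-normalised counts, a signal whose steps gave whole reads (100% of values within 0.1 read), in 8 tables of 6 libraries. DESeq2 is also named in the submitters' processing notes, without a version.

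Reads were recovered per library and divided by the library total to give CPM (1 read was 0.0457 to 0.220 CPM, and 1.53 CPM in library 35). Column names carry no group. A library present in both mutant tables of an age and background was taken as the shared WT control (12 libraries, with identical reads in both), and each remaining library was assigned to the mutant in the table's name, with Mut read as A537T. The number of columns without a group was 0. Replicates within groups differed by more than sampling noise. Per the study's methods they were biological replicates, from 3 mice of each line and age.

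All 36 libraries entered 1 limma fit (version 3.58.1, R 4.3.3, eBayes with trend) on log2(CPM + 1), with 12 groups and no covariate, over miRNAs of mean CPM of at least 1. Arm ratios were fitted likewise on log2((5p reads + 0.5)/(3p reads + 0.5)). P-values were Benjamini-Hochberg adjusted within each of the 26 contrasts, with a threshold of 0.05. For the arms, 11 of these were tested, and those that use WT-TRAMP or A537T-TRAMP libraries, planned as tests as well, were described without one, because these libraries chose the arms. Folds are on the log2(CPM + 1) scale. The scripts were tested on simulated counts. Alternatives included edgeR 4.0.16 (quasi-likelihood) and DESeq2 1.42.0. The members, contrasts and lists were chosen with earlier results of these data known. Named list members were those passing the test, up to 3 per direction by adjusted p in a contrast, and for each arm the 3 miRNAs with the highest r of group means. The authors' 2 lists of merged miRNAs were not used.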

Additional observations from a re-analysis of the deposited data

How the results depend on the processing

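Values are differences in log2(CPM + 1), or in the log2 ratio of the arms. Of 250 alternative values of tested contrasts, 221 kept their direction and their side of the threshold, 2 lost a call, 16 gained one and 11 changed sign. A value that changed sign was not counted as a gained call, even where it passed the test. Of 338 values of the untested contrasts, 10 changed sign and 8 moved by over 1 SD. The lower levels of both arms with TRAMP at 10 weeks kept their direction under every alternative. Depth limited 3p in the TRAMP libraries of 10 weeks and both arms in library 35. The estimation of array weights stopped before reaching its tolerance. That setting called far more miRNAs than the main fit in several contrasts, such as 305 of 514 in KO against WT at 30 weeks. The causes of the changes below were not tested. No paired analysis was possible because the columns carry no replicate number.

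With a pseudocount of 5 CPM, the test was newly passed for KO-TRAMP with age (3p 1.24). With a pseudocount of 5 CPM, the sign changed for KO-TRAMP against KO at 30 weeks (3p 0.070) and KO-TRAMP change of the line effect with age (3p 0.12). Without the filter on low levels, the test was no longer passed for KO-TRAMP against KO at 10 weeks (3p -1.54). With TMM scaling, the sign changed for KO-TRAMP against WT-TRAMP at 30 weeks (5p -0.13, 3p -0.13), KO with age (3p 0.16) and KO-TRAMP change of the line effect with age (5p -0.32). With array weights, the test was newly passed for KO against WT at 30 weeks (5p 0.67), A537T against WT at 30 weeks (5p 0.76), WT with age (5p -0.91) and KO with age (5p -0.65). The same held for A537T with age (3p -0.88), KO-TRAMP with age (5p 1.91, 3p 2.48), the age-by-TRAMP interaction in KO (5p 2.56, 3p 2.79) and KO-TRAMP against KO at 10 weeks (ratio -0.56). With array weights, the sign changed for KO against WT at 10 weeks (3p 0.055), KO-TRAMP against KO at 30 weeks (5p 0.34, and 3p 1.14, which also passed the test with adjusted p = 0.000578), KO-TRAMP change of the line effect with age (3p 0.86) and A537T against WT at 10 weeks (ratio -0.11). The same held for WT-TRAMP against WT at 10 weeks (ratio -0.095). With array weights, the untested value moved by over 1 SD for KO-TRAMP against WT-TRAMP at 30 weeks (5p 0.91, 3p 1.01), KO-TRAMP change of the line effect with age (5p 0.77), KO-TRAMP against A537T-TRAMP at 30 weeks (5p 1.88, 3p 2.63) and the age-by-TRAMP interaction in WT (ratio -0.42). Over pairs of at least 10 CPM in both arms, the test was newly passed for KO-TRAMP with age (ratio -0.62). With only the groups compared in the fit, the test was no longer passed for KO-TRAMP against KO at 30 weeks (ratio -0.74). With only the groups compared in the fit, the test was newly passed for A537T with age (3p -1.21). By edgeR's quasi-likelihood test, the test was newly passed for KO-TRAMP with age (3p 1.87). By edgeR's quasi-likelihood test, the sign changed for KO-TRAMP against KO at 30 weeks (3p 0.19), KO with age (3p 0.19) and KO-TRAMP change of the line effect with age (3p 0.24). By edgeR's quasi-likelihood test, the untested value moved by over 1 SD for KO-TRAMP against A537T-TRAMP at 30 weeks (3p 2.31). By DESeq2's Wald test, the test was newly passed for KO against WT at 30 weeks (5p 1.50) and KO-TRAMP with age (3p 1.98). By DESeq2's Wald test, the sign changed for KO-TRAMP against KO at 30 weeks (3p 0.21), KO with age (5p 0.098, 3p 0.46) and KO-TRAMP change of the line effect with age (3p 0.33). By DESeq2's Wald test, the untested value moved by over 1 SD for KO-TRAMP against A537T-TRAMP at 30 weeks (3p 2.41). On the authors' normalised counts, the sign changed for KO-TRAMP against WT-TRAMP at 30 weeks (5p -0.17, 3p -0.20).

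Leaving out 1 library at a time changed a sign or a call, or moved an untested value by over 1 SD, with these lowest and highest differences, for KO against WT at 10 weeks (3p -0.21 to 0.079), A537T against WT at 10 weeks (ratio -0.091 to 0.16) and A537T against WT at 30 weeks (3p -0.33 to 0.50). Likewise changed were KO-TRAMP against WT-TRAMP at 10 weeks (5p -0.32 to 0.36, 3p -0.11 to 0.16, ratio -0.29 to 0.26), A537T-TRAMP against WT-TRAMP at 10 weeks (5p -0.14 to 0.42, ratio -0.70 to -0.15) and KO-TRAMP against WT-TRAMP at 30 weeks (5p -0.60 to 1.12, 3p -0.69 to 1.15, ratio -0.068 to 0.14). Likewise changed were WT-TRAMP against WT at 10 weeks (ratio -0.19 to 0.36), KO-TRAMP against KO at 10 weeks (3p -1.66 to -1.43, ratio -0.72 to -0.31) and WT-TRAMP against WT at 30 weeks (5p -0.12 to 0.62). Likewise changed were KO-TRAMP against KO at 30 weeks (5p -1.44 to 0.27, 3p -0.78 to 1.06, ratio -0.82 to -0.64), WT with age (ratio -0.16 to 0.093) and KO with age (3p -0.29 to 0.12). Likewise changed were WT-TRAMP with age (ratio -0.95 to -0.40), KO-TRAMP with age (5p 0.23 to 1.94, 3p 0.72 to 2.56, ratio -0.82 to -0.41) and A537T-TRAMP with age (5p -0.31 to 0.042). Likewise changed were the age-by-TRAMP interaction in WT (ratio -0.92 to -0.37), the age-by-TRAMP interaction in KO (5p 0.64 to 2.36, 3p 0.76 to 2.60) and KO-TRAMP change of the line effect with age (5p -0.61 to 1.10, 3p -0.74 to 1.10, ratio -0.22 to 0.33). Likewise changed were A537T-TRAMP change of the line effect with age (ratio 0.91 to 1.46) and KO-TRAMP against A537T-TRAMP at 30 weeks (5p 0.32 to 2.03, 3p 0.89 to 2.73).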
